A study of Mus musculus with 16 samples.

Results

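Surgery on the shoulder of C57BL/6J mice (BL6 below) was followed by RNA sequencing of the rotator cuff muscle, and 8 of the series' 16 samples carry that comparison. The members were taken from the sample titles: 4 operated BL6 samples, in which tenectomy, the surgical removal of tendon, was combined with denervation of the muscle, and 4 BL6 samples with no operation. No transgene, drug or sham operation is named for either group. The other 8 samples are the same groups in MRL/MpJ mice (MRL below) and enter here only through a shared estimate of the spread and through a direct test of the difference between strains. Sample labels name the supraspinatus and the series design names the infraspinatus, so the tissue is called rotator cuff muscle. Age, sex and the time from operation to collection are not given in the sources used here. Nothing in the labels says whether samples came from separate mice, so p-values measure the spread between these samples.

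A muscle fibre receives a nerve signal at the neuromuscular junction, where acetylcholine opens a receptor channel, the sodium channel spreads the impulse and calcium from the sarcoplasmic reticulum starts contraction. Loss of the nerve is known to raise myogenin and with it a programme that includes receptor subunits, and loss of the tendon removes mechanical load. Muscle treated in both ways is known for loss of fibre mass, gain of connective tissue and gain of fat, which are common after large rotator cuff tears.

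The operated samples did not form an even group. Total counts ran from 33679319 to 43552964 in the unoperated and from 26469749 to 31094642 in the operated samples, so operated samples were sequenced less deeply and a level of 3 counts stood at 0.0689 to 0.113 CPM. Operated replicate 4 lay farthest from the unoperated samples on the first principal component of log2 CPM (CPM, counts scaled to a total of 1000000 in each sample, with TMM factors), which carried 79.1% of the variance over the 8 samples. Its score there was 87.9, against 44.1, 15.8 and 50.8 in the other operated samples and -62.2 to -37.6 in the unoperated ones. It also held the highest level of the 8 samples in 3419 of 11709 genes (29.2%). That replicate had been set apart beforehand for high matrix, macrophage and bone genes. Each result below is for that reason given with all samples and without it. A gene printed with 1 value kept that call, or lack of one, in both fits. Operated MRL replicate 4, which enters the shared spread and the test between strains, stood apart from its group too. Mitochondrial genes took 11.8% of its counts, against 20.1% to 24.9% in the other operated MRL samples and 10.97% to 11.6% in the unoperated ones. Pdpr, the regulatory subunit of pyruvate dehydrogenase phosphatase, had 25.7, 91.5, 111 and 87.7 CPM unoperated and 5.60, 5.86, 4.30 and 57.1 CPM operated in MRL, so that sample lay within the unoperated range there. Without it 8146 genes (69.6%) were called in BL6, 7915 of them in the same direction as with all samples.

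Marker genes of other cell types include those for which operated BL6 replicate 4 had been set apart beforehand. Summed over the 21 macrophage markers, CPM was 311, 182, 322 and 1109 in operated replicates 1 to 4 and 245, 101, 76.5 and 65.4 in unoperated replicates 1 to 4. Macrophage markers were thus highest in operated replicate 4, and unoperated replicate 1 overlapped operated replicate 2. The 15 bone and cartilage markers analysed of 22 listed summed to 103, 77.6, 163 and 585 CPM in the operated and 51.2, 50.6, 56.8 and 41.2 CPM in the unoperated samples, and the 9 tendon markers to 509, 474, 435 and 1798 and 182, 121, 156 and 118 CPM. Sp7, the transcription factor that defines osteoblasts, had 0.0601, 0.168, 0.344 and 0.216 CPM in the unoperated and 0.646, 0.387, 2.04 and 10.6 CPM in the operated samples, and Bglap, which codes for osteocalcin, 0.202, 0, 2.97 and 13.5 CPM in operated replicates 1 to 4, against 0, 0.168, 0.291 and 0.677 CPM in unoperated ones. Acan, which codes for the cartilage proteoglycan aggrecan, had 0.0300, 0.0479, 0.106 and 0.0271 CPM without and 0.161, 0.155, 1.47 and 9.55 CPM with the operation. Bglap has near-identical neighbouring copies, so its counts are uncertain. It was at 0 in unoperated replicate 1 and operated replicate 2, and both bone genes were near 0 outside operated replicates 3 and 4. Markers of the skeletal muscle fibre were present in every sample, and their 12 genes summed to 113928, 158401, 97465 and 64916 CPM in the operated and 132960.4, 144573, 180132 and 178489 CPM in the unoperated samples, with operated replicate 4 the lowest of all 8. In bulk tissue, fewer cells of a type and less RNA per cell cannot be told apart. Of 12 fibre markers 7 fell, and 1 rose and 6 fell without operated replicate 4, where 32.8% and 31.7% of all genes fell. None of the 9 lymphocyte markers listed was among the genes analysed, and of 6 blood and marrow markers only S100a9, a protein of neutrophils, rose, by 1.86, while the haemoglobin genes were not called.

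**Figure D1:**
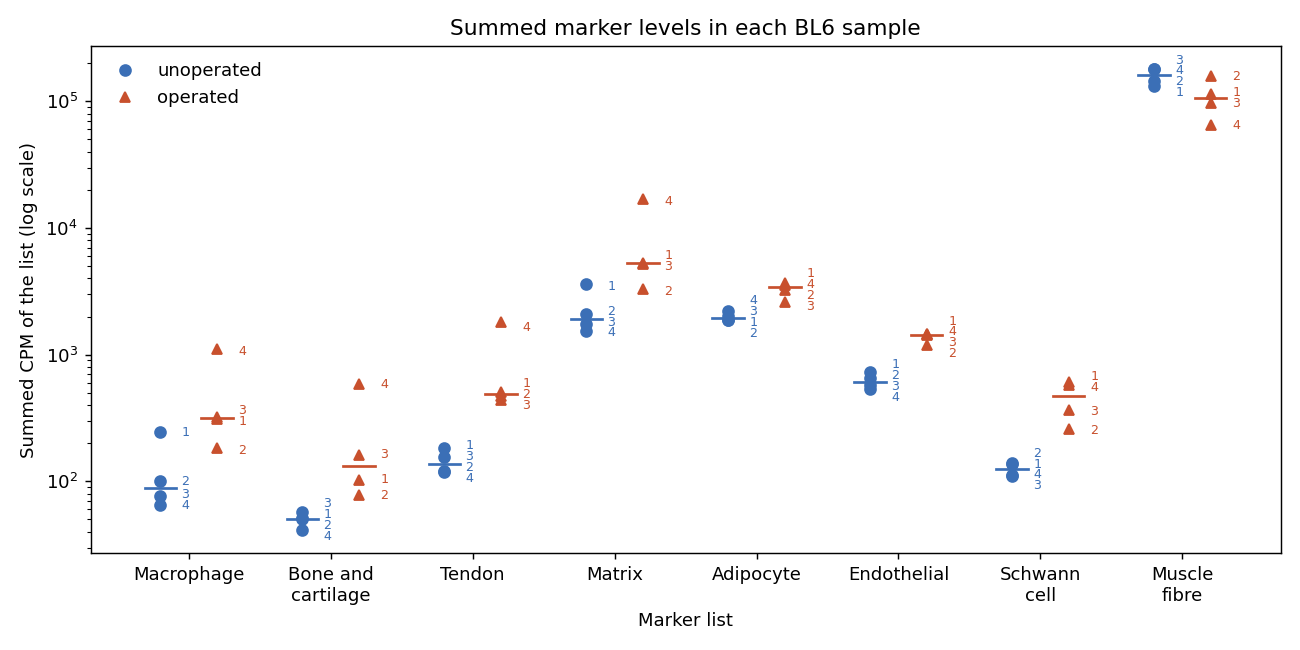
Summed CPM of 8 marker lists (vertical axis, log scale) in the 4 unoperated (circles) and 4 operated (triangles) BL6 samples, with the replicate number beside each point and a bar at each group's median. Operated replicate 4 is the highest point of the macrophage, bone and cartilage, tendon and matrix lists and the lowest point of the muscle fibre list.

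Surgery changed most of the genes tested. In edgeR's quasi-likelihood test 7950 of 11709 genes (67.9%) passed an adjusted p of 0.05, 4107 higher after surgery (35.1% of genes tested) and 3843 lower (32.8%). Without operated replicate 4 the test called 7432 genes (63.5%), 3726 higher (31.8%) and 3706 lower (31.7%). Counts of list genes are to be read against these shares. Both fits called 7114 genes in the same direction, 3545 higher and 3569 lower, and 0 in opposite directions. The 836 genes called only with all samples leaned upward, with 562 higher and 274 lower. Large changes depended more on the replicate: the 2-fold calls numbered 2999 (25.6%) with it and 2426 (20.7%) without it. Among those the higher ones went from 1877 to 1403 and the lower ones from 1122 to 1023. In 6645 genes (56.8%) the 4 operated samples lay wholly above or wholly below the 4 unoperated ones.

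**Figure D2:**
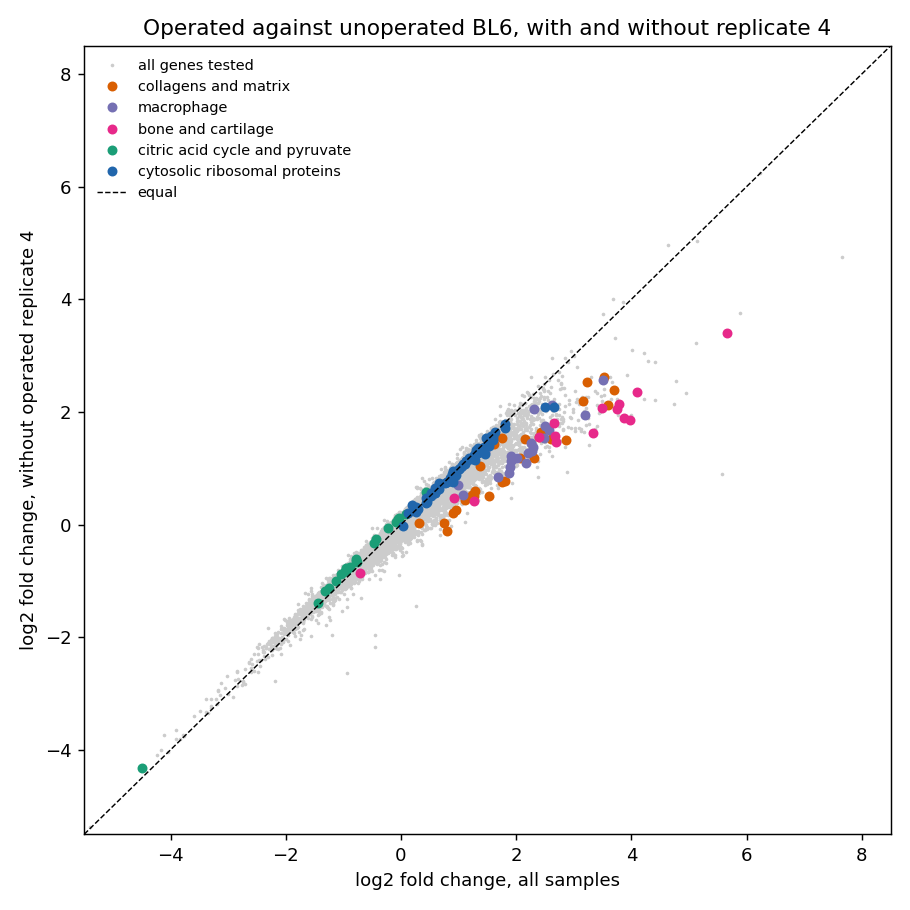
Log2 fold change of operated against unoperated BL6 with all samples (horizontal axis) and without operated replicate 4 (vertical axis), 1 grey point per gene tested, with the matrix, macrophage, bone and cartilage, citric acid cycle and cytosolic ribosomal protein lists in colour and a dashed line of equality. Matrix, macrophage and bone genes fall below the line, while most ribosomal and citric acid cycle genes lie near it.

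Fold changes went with transcript length, and this touches every gene group below. Length is that of a gene's longest protein-coding transcript, or of its longest of any kind where none is coding. Genes of at most 1000 bases had a median log2 fold change of 0.70 (636 genes), and 70.3% of them were called higher. Genes over 6000 bases had a median of -0.36 (1677 genes), and 51.8% of them were called lower. Across 11707 genes the rank correlation of fold change with length was -0.30, and -0.35 without operated replicate 4; that with GC content was 0.27. Genes of 1 sample share its library, so these are descriptions with no p. The median log2 level of the short genes minus that of the long genes was -0.69, -0.50, -0.70 and -0.81 in unoperated replicates 1 to 4 and 0.25, 0.45, 0.48 and 0.32 in operated replicates 1 to 4. These values do not overlap between the groups, and operated replicate 4 lies among the other operated samples. The shift runs through whole libraries, so an effect of the operation and a technical difference between the groups cannot be told apart. Its source was not tested. An alternative fit, chosen after seeing the data, took out each sample's trend of level with length and GC content, and by construction it removes any part of the response that goes with them. It called 7691 genes (65.7%), 3552 higher (30.3%) and 4139 lower (35.4%), of which 6311 were called in the same direction without it and 73 in the opposite one. A total of 5813 genes kept call and direction with all samples, without operated replicate 4 and with the length and GC correction, 2732 higher and 3081 lower.

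**Figure D3:**
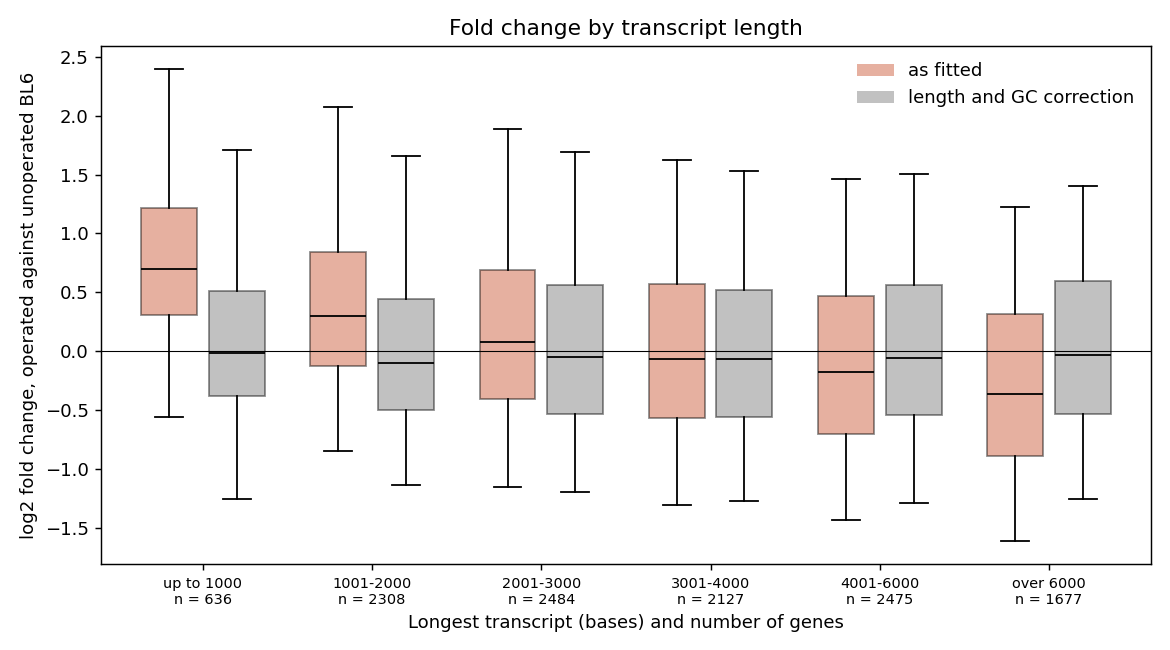
Log2 fold change of operated against unoperated BL6 (vertical axis) for genes grouped by transcript length in bases (horizontal axis). The length is that of the longest protein-coding transcript, or of the longest of any kind where none is coding. Left boxes are as fitted with all samples and right boxes with the length and GC correction. Boxes span the quartiles, lines mark medians and whiskers the 5th and 95th percentiles. Medians go from 0.70 in the shortest to -0.36 in the longest group as fitted and lie between -0.10 and -0.017 after correction.

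Among the regulators of denervated muscle, a set of strong rises held with and without operated replicate 4. Of the 20 genes on that list 8 rose and 7 fell with all samples, and 7 rose and 7 fell without operated replicate 4; among all genes tested 35.1% rose and 32.8% fell. The list's median log2 fold change was -0.0010, against 0.041 over all genes tested. Sln (chromosome 9, 53850164 to 53854560) codes for sarcolipin, a small membrane protein that inhibits the calcium pump. It had 0.661, 2.54, 1.27 and 1.60 CPM in the unoperated and 82.3, 19.6, 50.9 and 63.8 CPM in the operated samples. Every operated sample lay far above every unoperated one, and the log2 fold change was 5.14 (SE 0.67, adjusted p 2.79e-05), or 5.04 without operated replicate 4. Myog, the transcription factor myogenin, had 8.03, 11.8, 12.99 and 17.9 CPM in operated replicates 1 to 4, against 4.63, 3.45, 1.85 and 2.33 CPM in unoperated ones, with no overlap between groups. It rose by 2.05 on the log2 scale (SE 0.32, adjusted p 9.26e-05) and by 1.83 without operated replicate 4. Ankrd1, an ankyrin repeat protein of the sarcomere that responds to stretch, had 10.1, 15.8, 15.6 and 13.02 CPM without and 75.9, 50.6, 91.5 and 151 CPM with the operation. Csrp3, a LIM protein of the Z-disc, had 40.4, 29.99, 27.1 and 22.8 CPM in the unoperated and 115, 90.5, 136 and 173 CPM in the operated samples. Both rose, by 2.76 and 2.09 with all samples and by 2.41 and 1.91 without the replicate. Cdkn1a, the cell cycle inhibitor p21, rose by 2.61, and Runx1, a transcription factor of denervated fibres, by 1.79 or, without operated replicate 4, 1.26. Genes that fell include Dach2, known to repress Myog, at -2.35, and Igfbp5, which binds insulin-like growth factors, at -1.19. Hdac9, Myod1 and Mef2c fell too, at -0.97, -0.76 and -1.005, or -0.58, -1.24 and -0.56 with the length and GC correction. Gadd45a, often raised by denervation, was not called, at 0.17 (adjusted p 0.482). The embryonic myosin Myh3 and the neonatal myosin Myh8, at 0.72 and -0.49, were not called either.

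The sequence before the start of 3 of these rising genes is shown because myogenic factors of the Myog and Myod1 family bind the E-box, CANNTG. Each line gives the 250 bases ahead of the RefSeq start on build GRCm38.p6, 5′ to 3′ on the gene's strand, with every E-box in capitals. The motif reads the same on both strands.
Myog (chr1:134289754-134290003, plus strand): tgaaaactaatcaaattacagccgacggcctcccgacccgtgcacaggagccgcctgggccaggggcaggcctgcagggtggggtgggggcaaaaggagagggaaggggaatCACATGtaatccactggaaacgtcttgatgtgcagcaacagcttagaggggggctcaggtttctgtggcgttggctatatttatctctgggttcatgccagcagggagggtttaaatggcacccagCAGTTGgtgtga
Ankrd1 (chr19:36119845-36120094, minus strand): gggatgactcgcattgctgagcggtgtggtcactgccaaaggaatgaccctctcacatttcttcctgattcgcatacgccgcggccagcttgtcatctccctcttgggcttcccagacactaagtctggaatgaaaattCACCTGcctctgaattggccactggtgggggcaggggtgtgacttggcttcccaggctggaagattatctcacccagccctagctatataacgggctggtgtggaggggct
Csrp3 (chr7:48848052-48848301, minus strand): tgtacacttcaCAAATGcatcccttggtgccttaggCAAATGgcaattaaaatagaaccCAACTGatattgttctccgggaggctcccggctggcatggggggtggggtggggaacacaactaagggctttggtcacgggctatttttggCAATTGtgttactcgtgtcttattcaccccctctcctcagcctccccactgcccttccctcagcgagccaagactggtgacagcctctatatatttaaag
Myog holds 2 E-boxes in this window, Ankrd1 1 and Csrp3 4. At least 1 E-box is in 66.2% of the 32851 windows of the same length in the table and at least 3 in 12.2%, so a match is common and describes only the letters.

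Genes of the neuromuscular junction moved in both directions. Of 17 analysed, 4 rose and 8 fell, where 35.1% of all genes rose and 32.8% fell, with a median of -0.042; without operated replicate 4, 5 rose and 7 fell. Chrnb1, the beta subunit of the acetylcholine receptor, had 56.6, 53.1, 63.7 and 54.2 CPM in operated replicates 1 to 4, against 31.96, 27.9, 23.5 and 25.1 CPM in unoperated ones. Its groups did not overlap, and it rose by 1.07 (SE 0.11, adjusted p 8.77e-06). The alpha subunit Chrna1 fell by 0.47 (adjusted p 0.00754) and was not called with the length and GC correction, at -0.30. Chrne, the subunit of the adult receptor, was not called with all samples, at 0.49 (adjusted p 0.0557), and rose by 0.67 without operated replicate 4 (adjusted p 0.00575). Agrn, the nerve signal that clusters receptors, rose by 1.27, while its kinase Musk fell by 1.31. The clustering protein Rapsn and acetylcholinesterase, Ache, fell by 0.53 and 0.57, and by 1.07 and 0.98 with the length and GC correction. Scn4a, the sodium channel of the muscle membrane, had 517, 549, 670.4 and 668 CPM without and 117, 153, 149 and 76.4 CPM with the operation. The operated samples were all below the unoperated ones, and the fall was 2.28 (SE 0.36, adjusted p 9.26e-05), or 2.11 without operated replicate 4. Chrng, the subunit of the fetal receptor, was not analysed here.

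Beyond Sln, the largest rises that held without operated replicate 4 were in a muscle protein, matrix proteins and their regulators, a metallothionein and haptoglobin. They were taken among genes with a mean of at least 5 CPM over the 8 BL6 samples. Cthrc1, Lrrc15 and Timp1 reached that level through operated replicate 4, where they had 31.5, 44.5 and 32.5 CPM. Their means were 0.281, 0.710 and 1.20 CPM in the unoperated and 2.67, 5.33 and 7.32 CPM in the other operated samples. Mybph (chromosome 1, 134193448 to 134201232), a myosin-binding protein of the thick filament, had 6.52, 9.29, 9.49 and 19.998 CPM in the unoperated and 136, 305, 106 and 31.8 CPM in the operated samples. Operated replicate 4 was its lowest operated sample, so its log2 fold change was 3.67 (SE 0.62, adjusted p 0.000145) with all samples and 3.999 without that replicate. Mt2 (chromosome 8, 94172664 to 94173568), a metallothionein that binds zinc and copper, had 49.2, 79.6, 17.5 and 31.5 CPM in operated replicates 1 to 4, against 8.53, 4.67, 4.18 and 5.68 CPM in unoperated ones, with no overlap, and rose by 2.95. Mfap4, a protein of elastic microfibrils, had 14.1, 7.40, 8.67 and 5.82 CPM without and 88.8, 35.5, 109 and 348 CPM with the operation. It rose by 4.01, or by 3.11 without the replicate, which was its highest sample. Comp, the cartilage oligomeric matrix protein, and Cthrc1, a secreted protein of matrix-making cells, rose by 4.29 and 5.13 with all samples and by 2.90 and 3.23 without it. Timp1, an inhibitor of matrix metalloproteinases, rose by 2.61 and Hp, the haemoglobin-binding protein haptoglobin, by 2.65 on the same basis, against 3.52 and 3.93 with all samples. Lrrc15, a surface protein of activated fibroblasts, rose by 2.89 without it and by 4.41 with all samples. Ssu2 and the noncoding RNA Bc1 rose by 2.85 and 3.05 with all samples and by 2.96 and 2.79 without it. With all samples and the length and GC correction they rose by 2.27 and 2.18. Srrm4os, at 3.86, is annotated as antisense to another gene, and since the use of strand in counting is not given in the sources used here, its reads cannot be told from its partner's.

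**Figure D4:**
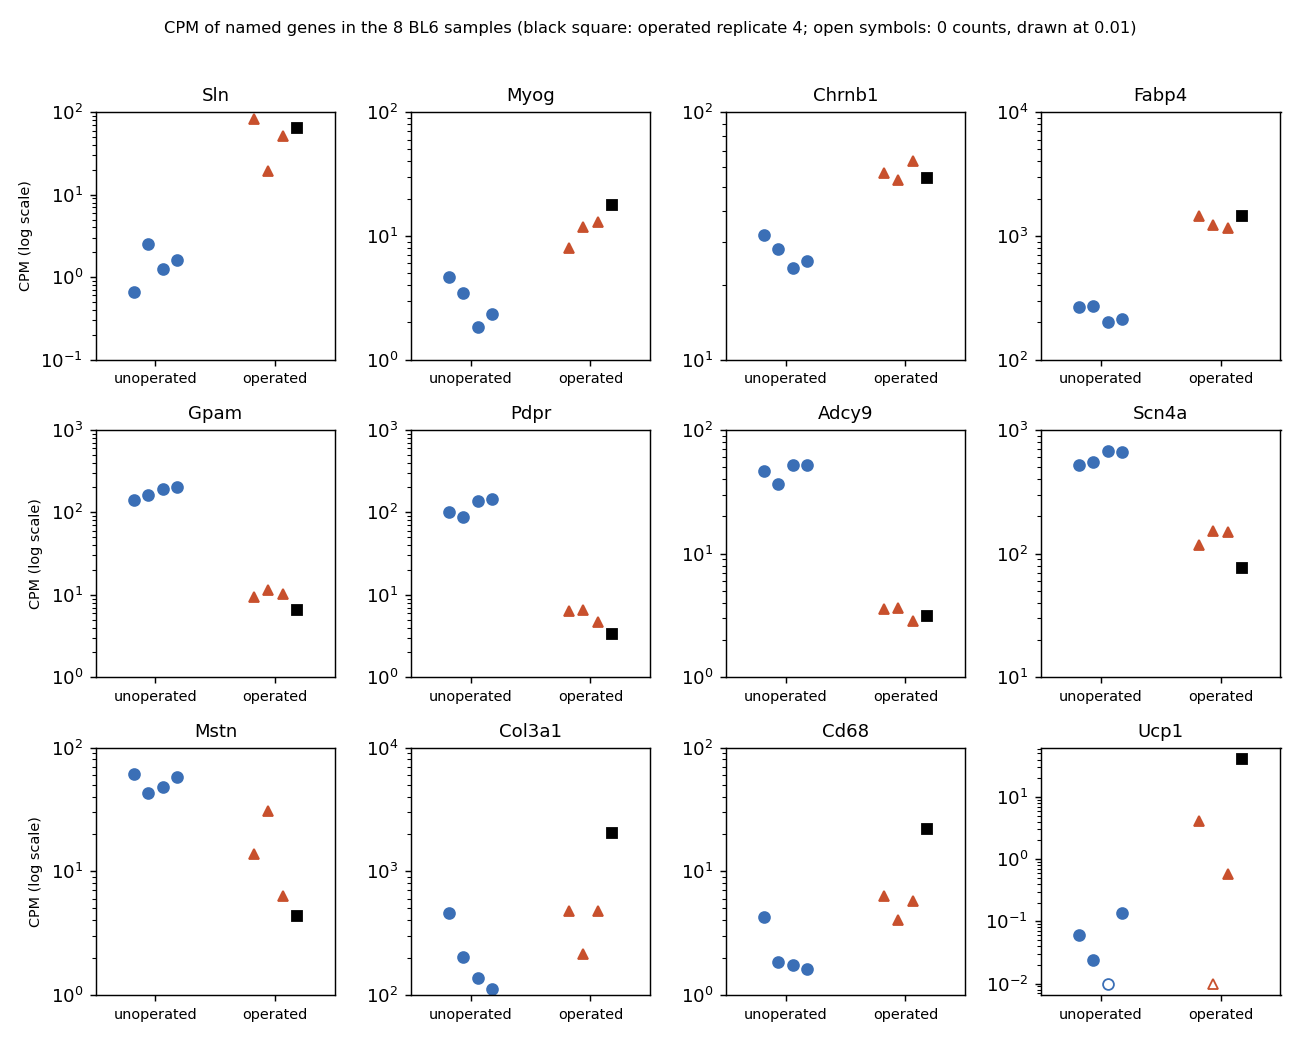
CPM (vertical axis, log scale) of 12 genes named in the text in the 4 unoperated (circles) and 4 operated (triangles) BL6 samples, 1 panel per gene, with replicate 4 of the operated group drawn as a filled square. The groups do not overlap in Sln, Myog, Chrnb1, Fabp4, Gpam, Pdpr, Adcy9, Scn4a or Mstn, they overlap in Col3a1, Cd68 and Ucp1, and the square stands far above the other operated samples in those last 3.

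Genes at lower levels fell as far as -5.72; the 12 described next are the largest falls without operated replicate 4 among genes at 5 CPM or more, called in both fits and without overlap, a choice that itself favours little dependence on that replicate. Pdpr (chromosome 8, 111094630 to 111137074), whose phosphatase switches pyruvate dehydrogenase on, had 100.2, 86.6, 138 and 147 CPM in the unoperated and 6.42, 6.62, 4.72 and 3.33 CPM in the operated samples. Gpam (chromosome 19, 55067268 to 55127238), the mitochondrial enzyme that starts triglyceride synthesis, had 9.32, 11.3, 10.3 and 6.45 CPM in operated replicates 1 to 4, against 142, 162, 194 and 204 CPM in unoperated ones. Neither showed any overlap, and their log2 fold changes were -4.49 and -4.23 with all samples and -4.32 and -4.10 without the replicate. Adcy9 (chromosome 16, 4287529 to 4420498), an adenylyl cyclase that makes cyclic AMP, had 46.8, 36.8, 51.7 and 52.01 CPM without and 3.55, 3.64, 2.86 and 3.10 CPM with the operation, and the 4 operated values lie close together. Hipk2 (chromosome 6, 38694390 to 38876165), a nuclear kinase, fell by 3.77, and Kcna7 (chromosome 7, 45405653 to 45409763), a potassium channel, by 3.60. Atg9a, a membrane protein of early autophagy, fell by 3.39 and Taco1, which activates translation of a mitochondrial cytochrome oxidase subunit, by 3.21. Myoz3, which links calcineurin to the Z-disc, fell by 3.31, and Prkg1, the kinase that responds to cyclic GMP, by 3.15. Prob1, Nkain1 and Lrtm2 fell by 3.19, 2.92 and 3.18. For these 12 genes the adjusted p was at most 0.000849 in edgeR's quasi-likelihood test, and with the length and GC correction the falls lay between -4.33 and -2.70.

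Part of the genes of the fast contractile apparatus fell. Of 19 fast genes 9 fell and 1 rose, with a median of -0.47, where 32.8% of all genes fell, and 7 fell and 2 rose without operated replicate 4, where 31.7% of all genes fell. Myh4, the myosin of the fastest fibres, had 23717, 27659, 45294 and 47035 CPM in the unoperated and 17859, 30502, 9872 and 4989.7 CPM in the operated samples. Operated replicate 2 lay inside the unoperated range and replicates 3 and 4 far below it, and the gene fell by 1.18 (SE 0.41, adjusted p 0.0176). Mylk4, a myosin kinase, had 327, 707, 99.8 and 54.96 CPM in operated replicates 1 to 4, against 1894, 2212, 2654 and 2939 CPM in unoperated ones, with the same order of operated samples but no overlap, and fell by 3.03. Atp2a1, the calcium pump of fast fibres, fell by 1.22, and Casq1, which stores calcium in the reticulum, by 1.48. Actn3, the alpha-actinin of fast fibres, and Mybpc2, the fast myosin-binding protein C, fell by 1.39 and 1.34. The light chain Myl1 rose, by 0.44, though not with the length and GC correction, at 0.0097. The fast troponin T, Tnnt3, and the light chain Mylpf were not called as fitted, at -0.21 and 0.17, and fell by 0.77 and 0.52 with that correction. Myosin heavy chain genes are close relatives, so reads may be shared between them. Of 14 slow genes 4 rose and 1 fell, and 3 rose and 1 fell without operated replicate 4. After the length and GC correction 2 rose. These are smaller shares than the 35.1% of all genes that rose, so the list as a whole did not stand out. The risers include the slow troponin T, Tnnt1, by 1.77 (1.17 and not called with the length and GC correction), the tropomyosin Tpm3 by 1.04 and Actn2 by 1.12; Mybpc1, the slow myosin-binding protein C, fell by 1.47. The slow myosin Myh7 was not called and spread widely, with 5.56, 7.78, 19.4 and 4.30 CPM without and 3.87, 21.1, 5.62 and 10.9 CPM with the operation. The giant structural genes fell, Neb by 1.92, Ttn by 1.27 and Dmd, which codes for dystrophin, by 2.07, and these are also among the longest transcripts. With the length and GC correction they fell by 1.40, 0.75 and 1.46, and 13 of the fast genes fell.

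Most enzymes of the citric acid cycle and pyruvate entry fell. Of 22 analysed 15 fell, 0 rose and 7 were not called, with a median of -0.83, where 32.8% of all genes fell. Without operated replicate 4 15 fell and 1 rose, and with the length and GC correction 19 fell and 0 rose. Pdp1, the catalytic subunit paired with Pdpr, had 83.6, 110.3, 132 and 135 CPM in the unoperated and 38.7, 40.9, 53.05 and 36.6 CPM in the operated samples. It fell by 1.44 (SE 0.16, adjusted p 1.43e-05) with no overlap. Sdha, the catalytic subunit of succinate dehydrogenase, fell by 1.32, Dld by 1.25, Dlat by 1.13 and citrate synthase, Cs, by 0.88. In fatty acid oxidation 14 of 23 genes were lower and 1 higher (median -0.70), and 13 and 1 without operated replicate 4. The shares lower among all genes were 32.8% and 31.7%. Acsl1, which activates long-chain fatty acids, fell by 1.51, the dehydrogenase Acadm by 1.40 and Ppara, a nuclear receptor that drives this pathway, by 2.38. The 1 riser was Etfb, a subunit of the electron carrier for these dehydrogenases, at 1.59 (0.81 with the length and GC correction), whereas its partner Etfa and the acceptor Etfdh fell by 0.89 and 1.19. Glycogen and glycolysis genes fell in 8 of 20 cases and rose in 0, and 1 rose and 7 fell without operated replicate 4. The share of falls is near that of all genes, 32.8% with all samples and 31.7% without the replicate. Those that fell with all samples included glycogen enzymes: Gbe1, the branching enzyme, by 1.32 and Pygm, muscle phosphorylase, by 1.01. Fbp2, the muscle fructose bisphosphatase, fell too, by 1.35. Pfkm, Pkm and Ldha of glycolysis proper were not called as fitted, at -0.45, -0.21 and -0.31, and fell by 0.63, 0.53 and 0.58 with the length and GC correction.

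Most nuclear genes for subunits of the respiratory chain rose as fitted. Of 79 subunit genes encoded in the nucleus 53 rose and 5 fell, with a median of 0.68, and 60 rose and 4 fell without operated replicate 4. Their median transcript length was 875 bases, against 3169 over all genes tested and 2562 in the citric acid cycle list. With the length and GC correction 17 rose and 15 fell, and the median was 0.031. The balance of this family thus depends on that correction. Cox6a1, a subunit of cytochrome oxidase, rose by 1.88 and by 0.87 after correction, and Ndufb4 of complex I by 1.51 and 0.94. Ndufs1, a large complex I subunit with a longer transcript, fell by 1.16 and 1.11. Of 7 such genes encoded in the mitochondrion 3 rose and 0 fell, and 4 rose without operated replicate 4. Of all genes 35.1% and 31.8% rose in these fits. With the length and GC correction 3 rose and 1 fell. Named among them, mt-Cytb rose by 0.68, and by 0.82 without operated replicate 4. All mitochondrial genes together took 14.2%, 13.1%, 12.2% and 12.98% of counts in the unoperated and 23.8%, 20.6%, 21.7% and 17.4% in the operated replicates 1 to 4, shares of raw counts that do not overlap. On the TMM-scaled CPM used for all other levels, the 7 mitochondrial chain genes summed to 139151, 133521, 136149 and 145807 CPM in the unoperated and 242363, 236867, 199462 and 129402 CPM in the operated samples, and the nuclear ones to 34877, 37617, 38523 and 36724 and 50939, 55218, 53467 and 34596 CPM. Operated replicates 1 to 3 were above and operated replicate 4 below all unoperated samples in both sums, so whether replicate 4 was higher or lower in mitochondrial RNA depends on the scaling. Its TMM factor was 1.27, against 0.830 to 1.04 in the other operated samples.

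Single enzymes of lipid synthesis moved in both directions. Of 17 analysed 9 rose and 5 fell (median 0.59), and 6 rose and 7 fell without operated replicate 4. Among all genes 35.1% rose and 32.8% fell, and 31.8% and 31.7% did without the replicate. The counts without it are near those shares. Besides Gpam, the phosphatase Lpin1 fell by 1.54 and Acacb, the mitochondrial acetyl-CoA carboxylase, by 1.02, while Acaca, its cytosolic counterpart, rose by 1.34, Dgat1, which completes the triglyceride, by 1.44 and the elongase Elovl5 by 1.64. Fasn, fatty acid synthase, had 28.7, 28.8, 74.8 and 212 CPM in operated replicates 1 to 4, against 29.02, 21.5, 26.9 and 27.01 CPM in unoperated ones. Operated replicates 1 and 2 lay near the unoperated samples and replicates 3 and 4 above them, and its call at 1.72 (adjusted p 0.0229) was lost without replicate 4, at 0.75 (adjusted p 0.217).

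Cytosolic ribosomal protein genes rose almost throughout. Of 61 analysed 57 rose and 0 fell, with a median of 1.002, and the counts were 57 and 0 without operated replicate 4. Their median transcript length was 964 bases, and with the length and GC correction 37 rose and 1 fell, with a median of 0.50. Rpl3, a large-subunit protein, had 4.03, 4.86, 3.81 and 3.71 CPM without and 11.5, 9.37, 8.66 and 15.7 CPM with the operation. It rose by 1.46 without overlap and by 1.06 after correction, and its muscle form Rpl3l was not called, at 0.19, but rose by 0.35 without operated replicate 4 (adjusted p 0.0354). Many ribosomal protein genes have processed copies in the genome, so counting may have split their reads and single levels are uncertain. Summed over the list, CPM was 4275, 4700.1, 4670.4 and 4276 in the unoperated and 6886, 8363, 7666 and 7470.4 in the operated samples, and here operated replicate 4 lies among the others.

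Most regulators of muscle atrophy on the list fell. Of 17 atrophy ligases and FoxO regulators 13 fell and 2 rose (median -0.48), where 32.8% of all genes fell, and 12 fell and 2 rose without operated replicate 4. Fbxo32, the ubiquitin ligase atrogin-1, had 343, 528, 467 and 388 CPM in the unoperated and 178, 279, 119.6 and 100.1 CPM in the operated samples. It was lower in every operated sample and fell by 1.35 (SE 0.37, adjusted p 0.00456). Trim63, the ligase MuRF1, had 191, 445, 114 and 87.9 CPM in operated replicates 1 to 4, against 273, 273, 247 and 252 CPM in unoperated ones, with operated replicate 2 the highest of all 8 and replicates 3 and 4 the lowest, and was not called. Foxo1 and Ddit4, an inhibitor of mTOR signalling, rose by 0.64 and 1.49 (0.96 and 0.98 with the length and GC correction), and Foxo4 fell by 1.26. In the proteasome 15 of 37 genes rose and 7 fell (median 0.056, against 0.041 over all genes tested), and 17 rose and 6 fell without operated replicate 4. Among all genes 35.1% rose and 32.8% fell, and 31.8% and 31.7% did without the replicate. With the length and GC correction 6 rose and 14 fell, where 30.3% of all genes rose and 35.4% fell. The balance of the listed subunits thus turns with it. Psmb8, Psmb9 and Psmb10, the inducible subunits of the immunoproteasome, had the 3 largest rises of the family as fitted, by 1.63, 1.60 and 1.14, and rose by 1.14, 1.05 and 0.54 with the correction. Of 20 autophagy and lysosome genes 4 rose and 5 fell, and 5 rose and 5 fell without operated replicate 4. Both shares lie below those of all genes, 35.1% higher and 32.8% lower. Named among them were Ulk1, the kinase that starts autophagy, lower by 1.09 and the protease Ctsz higher by 1.20 (0.61 with the correction).

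Growth signalling showed lower levels of both a brake and of insulin signal carriers. Mstn, myostatin, which limits muscle growth, had 60.7, 43.2, 48.3 and 57.8 CPM without and 13.6, 30.4, 6.30 and 4.38 CPM with the operation. Every operated sample lay below every unoperated one, and the gene fell by 1.95 (SE 0.44, adjusted p 0.00138), while its receptor Acvr2b fell by 1.95. Its antagonist Fst, follistatin, rose by 2.49, or by 1.73 without operated replicate 4. Irs1, an adaptor of the insulin receptor, fell by 1.53, Akt2 by 0.76, Mtor by 0.64 and Rps6kb1, the kinase of ribosomal protein S6, by 0.997 (0.56 with the length and GC correction). Igf1 rose by 1.63 with all samples (adjusted p 0.00986) and was not called without operated replicate 4, at 1.03 (adjusted p 0.0596). In all, 9 of 18 genes of this list fell and 4 rose, and 9 and 2 did so without the replicate; among all genes 32.8% fell and 35.1% rose, and 31.7% and 31.8% without it.

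Of 14 small heat shock and load-responsive genes 8 rose, 1 fell and 5 were not called, both with all samples and without operated replicate 4, where 35.1% of all genes rose. After the length and GC correction 5 rose, where 30.3% of all genes rose, so the count then lay near that share. Cryab, the chaperone alpha B-crystallin, had 1308, 985, 1139 and 1048 CPM in the unoperated and 3493, 2507, 3662 and 2909 CPM in the operated samples. It rose by 1.49 (SE 0.17, adjusted p 1.59e-05), or 0.90 with the correction, with no overlap, and Hspb7 rose by 1.39. Xirp2, a large actin-binding protein of the sarcomere, fell by 1.32 (0.76 with the correction) and was the 1 faller.

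Most collagen and matrix genes rose, and their values depended on operated replicate 4. Of 27 analysed 22 rose with all samples and 15 without it, none fell in either fit, and the median log2 fold change went from 1.75 to 1.18. Operated replicate 4 held the highest level of the 8 samples in 27 of the 27 genes, against 29.2% of all genes. It had been set apart beforehand for high matrix genes, so this count describes that choice and tests nothing. Col1a1, the alpha 1 chain of type I collagen, had 264, 192, 435 and 2161 CPM in operated replicates 1 to 4, against 157, 96.3, 95.9 and 70.4 CPM in unoperated ones. The groups did not overlap, and the rise of 2.86 (adjusted p 0.00269) became 1.497 (adjusted p 0.0187). Col3a1 had 460.0, 203, 137 and 112 CPM without and 477, 214, 473 and 2028 CPM with the operation. Unoperated replicate 1 was level with operated replicates 1 and 3, and the call at 1.81 was lost without operated replicate 4, at 0.76 (adjusted p 0.17). Basement membrane collagen depended little on the replicate: Col4a1 had 266, 163, 136 and 123 CPM in the unoperated and 655, 377, 477 and 810.2 CPM in the operated samples, and its rise was 1.75 with and 1.55 without it. Eln, elastin, rose by 3.23 and 2.53, Lox, which crosslinks collagen and elastin, by 3.16 and 2.20, Postn, periostin, by 3.59 and 2.13, and Tnc, tenascin C, by 3.69 and 2.39. Fn1, fibronectin, and the proteoglycans Dcn and Lum were called neither with nor without operated replicate 4, at 0.74, 0.32 and 0.80 with all samples; Fn1 was called with the length and GC correction, at 0.84. Summed CPM of the matrix list was 3598, 2098, 1743 and 1546 in the unoperated and 5278, 3293, 5228 and 16872 in the operated samples. The part that bone, tendon and macrophage markers, whose summed values stand above, have in these rises was not tested.

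Macrophage markers rose in 16 of 21 genes with all samples and in 10 without operated replicate 4, and none fell. Rises made up 35.1% and 31.8% of all genes. The median log2 fold change of the markers went from 2.20 to 1.29. Cd68, a lysosomal protein of macrophages, had 6.26, 4.03, 5.73 and 21.8 CPM in operated replicates 1 to 4, against 4.27, 1.84, 1.74 and 1.62 CPM in unoperated ones. Unoperated replicate 1 exceeded operated replicate 2, and the rise was 2.01 with all samples and 1.17 without operated replicate 4 (adjusted p 0.00312 and 0.0194). C1qa of complement rose by 2.27 and 1.31, and by 1.45 with all samples and the length and GC correction. Lyz2, lysozyme, was called at 1.69 with all samples and not without the replicate, at 0.84 (adjusted p 0.218), nor with the correction, at 1.41, and the defining markers Adgre1 and Itgam, at 2.18 and 1.92, were not called in either fit. Lgals3, galectin-3, held at 2.62 and 2.11.

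Most bone, cartilage and tendon markers analysed rose. In the bone and cartilage list 14 of 15 rose with all samples (median 3.33) and 10 without operated replicate 4 (median 1.80). For all genes the shares that rose were 35.1% and 31.8%. Ctsk, the collagen protease of osteoclasts, rose by 2.68 and 1.58, whereas Bglap lost its call, at 1.89 (adjusted p 0.203), and with the length and GC correction, at 2.86. Of 9 tendon genes 8 rose, and 7 did without the replicate. Tnmd, tenomodulin, a membrane protein of tendon cells, had 3.85, 2.32, 2.93 and 1.95 CPM without and 10.7, 16.97, 9.20 and 57.1 CPM with the operation. No operated sample overlapped the unoperated ones, and the rise was 3.09 with all samples and 2.15 without operated replicate 4. Scx, scleraxis, the transcription factor of tendon, rose by 2.01 and 1.07, and by 1.13 with all samples and the correction.

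Adipocyte genes rose in 11 of 14 cases, and in 10 without operated replicate 4, where 35.1% and 31.8% of all genes rose. Fabp4, a fatty acid carrier of fat and endothelial cells, had 266, 270.3, 201 and 213 CPM in the unoperated and 1445, 1225, 1159.6 and 1446 CPM in the operated samples. The operated samples were alike and far above the unoperated ones, and the rise of 2.47 (SE 0.20, adjusted p 4.18e-06) was 2.42 without the replicate. Pparg, the master regulator of fat cells, rose by 2.01 and 1.83. Adipoq, adiponectin, which only fat cells are known to make in quantity, had 20.02, 8.13, 25.6 and 110.0 CPM in operated replicates 1 to 4, against 5.44, 4.33, 2.80 and 5.74 CPM in unoperated ones. It did not overlap either, but operated replicate 2 was close to the unoperated samples, and the rise went from 3.17 to 1.97 without operated replicate 4. Cfd, the fat-derived protease adipsin, rose by 3.37 and 2.36. Ucp1, the uncoupling protein of brown fat, had 0.0601, 0.0239, 0 and 0.135 CPM without and 4.12, 0, 0.573 and 41.1 CPM with the operation. Its reads came almost wholly from operated replicate 4 and, at a lower level, replicate 1, and the call (adjusted p 0.0106) was lost without replicate 4 (adjusted p 0.0925).

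Endothelial, Schwann cell and smooth muscle markers rose with little dependence on operated replicate 4. Of 12 endothelial genes 10 rose, and 9 without it, where 35.1% and 31.8% of all genes rose. Pecam1, a junction protein of endothelium, had 105, 99.4, 80.6 and 74.3 CPM in the unoperated and 231, 212, 197 and 231 CPM in the operated samples. Every operated sample lay above every unoperated one, and the rise was 1.28 (SE 0.20). All 11 Schwann cell genes analysed rose, and 10 did without the replicate. Sox10, the lineage factor of these cells, had 7.10, 2.79, 4.69 and 6.43 CPM in operated replicates 1 to 4, against 2.22, 2.27, 1.59 and 1.33 CPM in unoperated ones. The groups did not overlap, and the rise was 1.503 with and 1.39 without operated replicate 4. Ngfr, a receptor that Schwann cells raise after nerve injury, rose by 2.18. The 7 smooth muscle and pericyte genes rose in both fits, Acta2, smooth muscle actin, by 2.09 and 1.88. Of 4 satellite cell genes Pax7, which marks the stem cells of muscle, fell by 0.69 with all samples (adjusted p 0.0339) and lost its call without operated replicate 4 (adjusted p 0.0639), Cdh15 fell by 0.58 (0.87 with the length and GC correction), Chodl rose by 0.80 and Vcam1, which endothelium also makes, by 1.01, not called without that replicate (adjusted p 0.0592). 
Markers of fibro-adipogenic progenitors, the connective tissue cells that can become fibroblasts or fat cells, rose in 6 of 11 genes in both fits, and none fell. Of all genes 35.1% rose with all samples and 31.8% without operated replicate 4. Thy1, a surface protein, had 18.6, 10.5, 8.06 and 7.50 CPM without and 31.6, 17.1, 26.95 and 82.5 CPM with the operation. It rose by 1.83, or by 1.17 without operated replicate 4. Pdgfra, the receptor that defines these cells, was not called, at 0.23, and Cd34 and Ly6a, which vessels also express, rose by 1.40 and 1.41. Of 10 cell cycle genes analysed of 17 listed, 6 rose and 2 fell, and 5 rose and 2 fell without operated replicate 4. Among all genes 35.1% rose and 32.8% fell, and 31.8% and 31.7% did without it. Cyclin D1, Ccnd1, rose by 1.79 and Mcm6 of the replicative helicase by 1.44. Ccne2, a cyclin of entry into DNA synthesis, had 7.03, 4.93, 4.84 and 5.20 CPM in the unoperated and 0.848, 1.16, 0.716 and 0.370 CPM in the operated samples. The operated samples were all lower, and it fell by 2.84 (SE 0.31, adjusted p 1.3e-05), or 2.60 without operated replicate 4.

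Clock genes divided the operated samples in pairs. Ciart, a repressor of the circadian clock, had 14.8, 16.2, 2.94 and 2.47 CPM in operated replicates 1 to 4, against 4.18, 8.45, 15.4 and 14.9 CPM in unoperated ones. Per2, a period gene, had 26.5, 26.5, 35.7 and 44.2 CPM without and 40.2, 34.6, 10.02 and 9.21 CPM with the operation. Operated replicates 1 and 2 stood above replicates 3 and 4 in both, and unoperated replicates 3 and 4 stood above 1 and 2. Arntl, the activator whose level runs opposite to these, had 24.002, 19.5, 14.3 and 12.4 CPM in the unoperated and 10.01, 9.92, 19.3 and 17.3 CPM in the operated samples, with the order turned round. None of the 3 was called. Of 16 clock genes 9 fell and 1 rose, and 1 rose and 8 fell without operated replicate 4. Falls took 32.8% and 31.7% of all genes in these fits. Tef, an output factor, fell by 1.09 and Bhlhe40 by 1.35, both without overlap. Some metabolic genes had the same pairs in the operated samples: Pdk4, the kinase that switches pyruvate dehydrogenase off, had 583, 930.0, 87.1 and 112 CPM in operated replicates 1 to 4, against 1282, 606, 545 and 593 CPM in unoperated ones, and Ppargc1a, a driver of mitochondrial genes, had 51.8, 49.8, 48.5 and 56.02 CPM without and 45.4, 63.7, 17.5 and 9.21 CPM with the operation. Both were not called, at adjusted p 0.208 and 0.352. Their unoperated samples did not show the pairs seen there in Ciart and Per2. Myh4 and Mylk4 of the fast contractile genes, given above, also had operated replicates 1 and 2 above replicates 3 and 4. The hour of collection is not given in the sources used here.

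**Figure D5:**
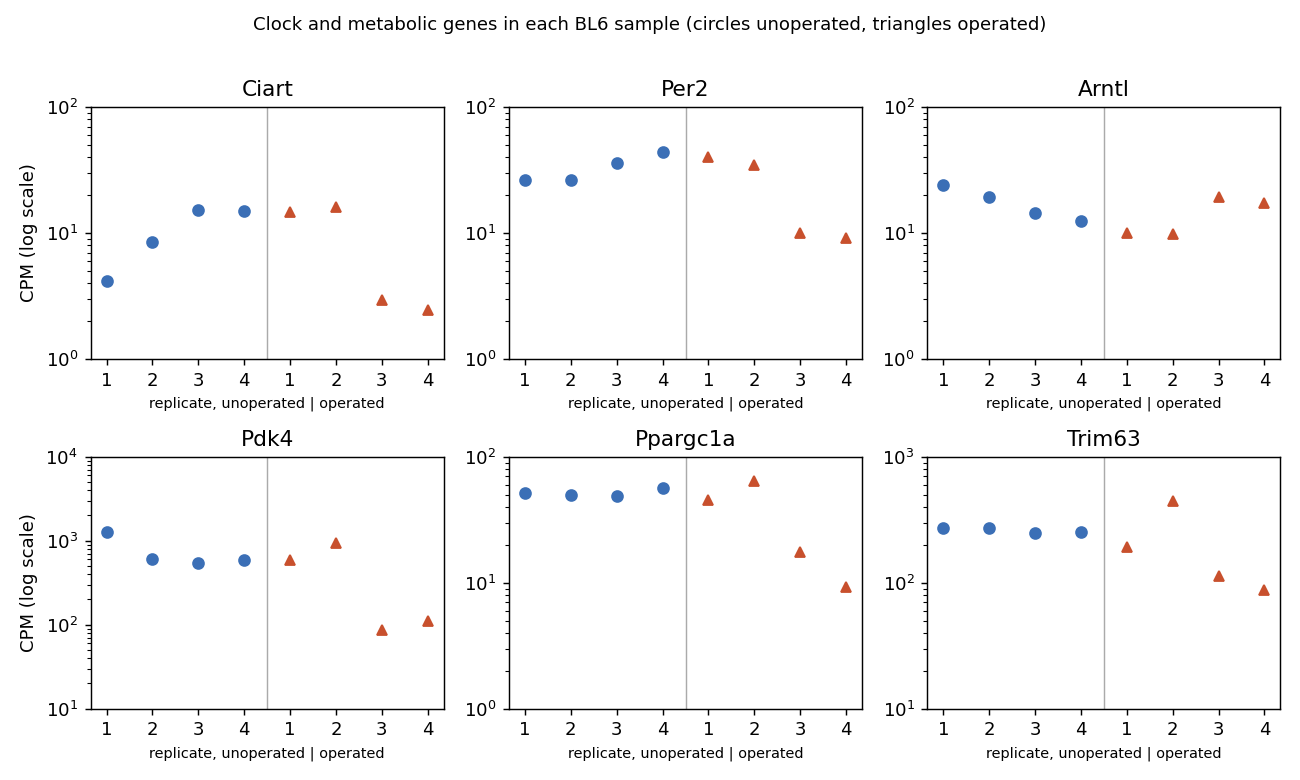
CPM (vertical axis, log scale) of Ciart, Per2, Arntl, Pdk4, Ppargc1a and Trim63 in each of the 8 BL6 samples (horizontal axis), circles for unoperated and triangles for operated samples. Operated replicates 1 and 2 stand above replicates 3 and 4 in every gene but Arntl, where they stand below.

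The rises that shrank most without operated replicate 4 were in genes of matrix, bone, brown fat and antibody. By the naming rule these were Ucp1, Sfrp2, Tnn, Col12a1, Cthrc1, Igkc, Col11a1 and Ibsp. Sfrp2, a secreted Wnt modulator of fibroblasts, had 0.781, 0.598, 1.40 and 0.298 CPM in the unoperated and 4.08, 1.98, 5.73 and 83.3 CPM in the operated samples, and Tnn, tenascin N, had 0.848, 2.60, 13.8 and 90.1 CPM in operated replicates 1 to 4, against 0.210, 1.10, 2.09 and 0.460 CPM in unoperated ones. Igkc, the constant part of the antibody kappa chain, had 1.17, 0.598, 1.74 and 1.08 CPM without and 4.72, 1.59, 6.94 and 48.99 CPM with the operation. In each the replicate held most of the operated signal. Their log2 fold changes of 4.95, 4.78 and 3.77 became 2.34, 2.55 and 1.94, and those of Col12a1, Col11a1 and Ibsp, at 2.89, 3.33 and 3.75, became 0.94, 1.62 and 2.05. Ucp1, Tnn and Col12a1 lost their calls, with adjusted p of 0.0925, 0.0518 and 0.216.

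Whether an effect was particular to BL6 was tested by its difference from the same contrast in MRL. The interaction passed in 29 of 11709 genes (0.248%), with 1843 at an unadjusted p under 0.05, in 36 (0.307%) without operated replicate 4, and in 26 by both fits. Ccdc28b had 24.2, 27.9, 30.3 and 24.5 CPM in the unoperated and 49.04, 44.4, 54.8 and 44.6 CPM in the operated samples. In MRL it had 15.5, 14.6, 14.4 and 13.98 CPM unoperated and 13.9, 14.5, 13.7 and 12.3 CPM operated. The groups overlapped in MRL and not in BL6, where it rose by 0.85 (0.16 and not called with the length and GC correction), and the difference from MRL was 0.96 (SE 0.14). Bche, butyrylcholinesterase, Tmf1 and the RNA-binding protein Matr3 fell by 1.22, 1.11 and 0.64, with differences of -1.19, -0.92 and -0.76; over these 4 genes adjusted p ran between 0.0198 and 0.0311. After the length and GC correction Bche and Tmf1 fell in BL6 by 0.70 and 0.67, and Matr3 was not called there, at -0.13. Of 26 alternatives the interaction lost its call in 14 for Bche, in 13 each for Tmf1 and Matr3 and in 5 for Ccdc28b. The number of genes changed with most settings: leaving out operated MRL replicate 4 gave 18 genes (0.154%), 12 of them called with all samples, the 4 genes above among them. The replicate block left 2 genes and the length and GC correction 1 (0.00854%). Outside cytosolic ribosomal proteins, where 2 of 61 passed, 0 of the other 510 list genes passed, and likewise 0 without operated MRL replicate 4. Without operated BL6 replicate 4 it was 1, Atp5g1, a subunit of ATP synthase. The changes of the others are therefore not shown to be particular to BL6.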

How the data were processed

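RNA from 16 rotator cuff muscle samples, 4 in each group of strain and operation, had been sequenced; the 8 BL6 samples carry the comparison. The values used are raw counts per gene, deposited by the authors as 1 table with no total or unassigned rows. The submitters' processing notes name FastQC, STAR, edgeR and build mm10; the tool versions, the counter, the annotation, the use of strand and any filter on genes are not given in the sources used here. A table of the authors' edgeR results was not used.

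Counts were fitted with edgeR 4.0.16 (R 4.3.3): TMM factors, filterByExpr with a minimum count of 10, which kept 11709 genes, 1 mean per group over all 16 samples, and the quasi-likelihood test. With no filter on low counts 11710 genes were tested, so shares of genes tested are shares of the genes in the deposited table. P-values were two-sided and adjusted by Benjamini-Hochberg over all genes tested, with calls at 0.05 and, for 2-fold calls, a log2 fold change of 1 or more in size. The SE is the absolute log2 fold change divided by the square root of F. CPM used TMM-scaled totals, log2 CPM a prior count of 2, and the short-minus-long difference a pseudocount of 0.5. Total depth and the level of 3 counts are in the text and cover counting error only. Transcript length, GC content and positions came from GENCODE M21 on GRCm38, the assembly mm10 names, which held 11707 of 11709 gene IDs; the length and GC correction used splines with 5 degrees of freedom. Promoter windows came from RefSeq on GRCm38.p6; Sln was named without one.

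Named genes were the 12 largest rises and the 12 largest falls fitted without operated replicate 4, called with and without it, without overlap between groups and at a mean of at least 5 CPM; the 8 genes called higher whose log2 fold change fell most without it; and the 5 interaction genes with the smallest adjusted p; plus members of pathway and marker lists. Of the 5 interaction genes 1 is not reported here. The members and lists were chosen with earlier results of these data known. No 2 samples agreed within sampling noise. Fits were tested on simulated counts. Alternatives were BL6 samples alone, DESeq2 1.42.0 and its size factors, limma 3.58.1 voom, library totals, other filters, the replicate block and leaving out each sample; those with the length and GC correction, and the pairs of changes that include leaving out operated replicate 4, were added after seeing the data.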

Additional observations from a re-analysis of the deposited data

Results flagged for a closer look

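Of 410 groups of 4 samples examined, 1 for each named gene or marker list and each BL6 group, 50 had a highest or lowest sample set apart from the other 3 by Dixon's ratio at the 95% level, and operated replicate 4 was the high sample in 33 of them. Chance alone sets apart about 1 group in 20, but some of these genes were named because that replicate was high in them, and the groups share samples, so the number cannot be read against that rate.

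For summed marker lists, operated replicate 4 stood at 16872 CPM in collagens and matrix, 1798 in tendon, 1109 in macrophage and 585 in bone and cartilage, and the next operated sample at 5278, 509, 322 and 163. Matrix genes set apart in it were Col1a1 (2161 CPM), Col3a1 (2028), Col11a1 (52.7), Col12a1 (167), Postn (526), Fn1 (246), Tnc (104), Tnn (90.1), Lox (88.8), Cthrc1 (31.5), Timp1 (32.5) and Sfrp2 (83.3). Bone, cartilage and tendon genes were Sp7 (10.6 CPM), Acan (9.55), Ctsk (102), Comp (194), Scx (22.2) and Tnmd (57.1). Immune genes were Adgre1 (19.1 CPM), Itgam (5.52), Cd68 (21.8), C1qa (109), Lyz2 (320.5), Lgals3 (30.7) and Igkc (48.99). The others were Ucp1 (41.1 CPM), Hp (156), Runx1 (14.8) and Vcam1 (22.3). It was the low sample for Atp5g1, a subunit of ATP synthase (24.1 CPM, next 37.4). What set this sample apart was not tested.

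Operated replicate 2 was the high sample for Fbp2 (28.8 CPM), Gadd45a (33.7) and Lrtm2 (4.84) and the low sample for Hspb7 (593) and the endothelial sum (1185). Among unoperated samples, replicate 1 was high for Cd68 (4.27 CPM), Igf1 (31.8), Timp1 (2.28), Pdk4 (1282) and Ccne2 (7.03) and low for Gadd45a (13.3). Replicate 2 was low for Hipk2 (35.9) and high for Ndufb4 (45.2), replicate 3 low for Chrna1 (16.5) and high for the blood and marrow sum (1718), and replicate 4 high for Pparg (4.84).

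In edgeR's interaction test the response to surgery differed between BL6 and MRL, at an adjusted p under 0.05, for Bche (-1.19 on the log2 scale, BL6 minus MRL), Ccdc28b (0.96), Matr3 (-0.76) and Tmf1 (-0.92); and for Fzd4 (-1.11) and Hspa8 (1.17).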

How the results depend on the processing

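Calls for surgery in BL6 were stable in number: 7189 to 8177 genes when 1 sample was left out, and within 1.5 times the reported count in every alternative run. The 2-fold calls ran from 2426 to 3468 when 1 sample was left out and fell to 1978 with the length and GC correction without operated replicate 4. Library totals moved the median log2 fold change of all genes from 0.041 to 0.18 and the length and GC correction to -0.060, and the share of calls that were higher from 51.7% to 60.2% and 46.2%. Interaction counts were unstable: 1 to 69 when 1 sample was left out, 250 with DESeq2, 14 with library totals, 1 with the length and GC correction, and 17 with it and without operated replicate 4; the cause was not tested.

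The replicate numbers were not treated as pairs, because samples sharing a number did not deviate together (mean r -0.141, against 0.0531 for different numbers). With the replicate block 7928 genes were called, 2960 of them 2-fold, and 2 for the interaction, or 17 without operated replicate 4.

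For the 181 values of single genes, 3412 of 3639 alternatives kept direction and side of the threshold, 162 lost the call, 39 gained one and 26 changed sign. Leaving out operated replicate 4 lost 10 calls, and the length and GC correction 13. Sign changes were in genes not called as reported. With BL6 samples alone and operated replicate 4 left out they were Ciart at 0.055, Lum at -0.12 and Pdgfra at -0.088; with the block and that replicate left out, Ciart at 0.18, Dcn at -0.026, Lum at -0.20, Pdgfra at -0.085 and Trim63 at 0.029. With the length and GC correction they were Gadd45a at -0.24, Mylpf at -0.52 (then called) and Rpl3l at -0.36, and without operated replicate 4 as well, Gadd45a at -0.17, Mylpf at -0.38, Rpl3l at -0.18, Dcn at -0.016 and Ppargc1a at 0.12. Myh7 was at -0.16 with the block. When 1 sample at a time was left out, Ciart ran from -0.68 to 0.066, Gadd45a from -0.13 to 0.29, Lum from -0.11 to 1.11, Myh7 from -0.44 to 0.82, Pdgfra from -0.079 to 0.56 and Tnnt3 from -0.52 to 0.0011.

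Operated samples held fewer counts than unoperated ones, so genes near the level of 3 counts, such as Ucp1 and Bglap in most samples, are the least precise.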

Other observations

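Other genes whose response differed between strains, chosen here after their values were seen, include Hspa8, a constitutive heat shock protein, with 414, 390.0, 315 and 284 CPM in operated replicates 1 to 4, against 197, 147, 171 and 195 CPM in unoperated ones in BL6. It has many near-identical copies in the genome, so its counts are uncertain. In MRL it had 19.3, 19.01, 16.9 and 18.6 CPM unoperated and 14.05, 17.97, 14.2 and 18.6 CPM operated, below every BL6 sample with or without the operation, and the part that a strain difference in the gene or in read mapping has in its counts was not tested. The interaction was 1.17 (adjusted p 0.0347, or 0.0158 without operated BL6 replicate 4). Fzd4, a Wnt receptor, had 287, 315, 238 and 272 CPM without and 70.6, 61.6, 67.4 and 70.2 CPM with the operation in BL6 and 151, 145, 163 and 113 CPM unoperated and 87.2, 66.8, 66.5 and 79.1 CPM operated in MRL, with an interaction of -1.11 (adjusted p 0.0346, or 0.0221 without that replicate). Of 26 alternatives the interaction lost its call in 13 for Hspa8 and in 13 for Fzd4.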
